A study of Mus musculus with 38 samples.

Results

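Of 110589 H3K4me1 domains called in cultured epidermal stem cells (EpdSCs) before doxycycline (DOX), 6780 had no counterpart after any of 3 SOX9 variants had been induced. These domains, 6.13% of the list (95% exact binomial interval 5.99 to 6.27%), are the subject of the report. They were selected on measured calls: a domain was lost with a variant when it shared not even 1 bp with any domain of that variant's list, and it was a member when it was lost with all 3. The number of members and their fold, width and score are therefore a description. What the selection did not use, namely sequence, place, nearby genes and the state of the same positions in skin, is described after them.

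The cultures came from back-skin keratinocytes of newborn mice carrying the K14rtTA transgene, which makes the DOX-responsive transactivator in K14-expressing basal cells. Lentivirus delivered a DOX-responsive, MYC-tagged SOX9, and transduced cells were selected with puromycin, so the control cells had been transduced and selected too and carried WT SOX9 that was not induced. WT SOX9 was full length, ΔHMG-SOX9 lacked the DNA-binding domain, and ΔTA-SOX9 lacked the transactivation domain. The skin lists came from sorted EpdSCs of male K14rtTA; TRE-myc-Sox9 mice before DOX (D0) and after 1, 2, 6 and 12 weeks of DOX (W1, W2, W6 and W12), the W12 cells from grafts on Nude hosts. By the labels, a W2 replicate and the W12 replicates shared their libraries, while D0, W1 and W6 had libraries of their own. Each culture condition was given as 1 list of calls on pooled reads with no read totals, so there was no replicate to test against and depth is unknown. All intervals here cover counting error over domains only, and neighbouring domains of 1 library are not independent.

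H3K4me1 is a histone mark laid down mainly by the MLL3 and MLL4 methyltransferases at enhancers, both active ones and those in a primed state. Active enhancers carry H3K27ac in addition. SOX9 is a pioneer transcription factor of hair follicle stem cells, and its induction in EpdSCs moves them towards the follicle fate. AP1 factors (FOS and JUN dimers) bind many epidermal enhancers, and p63, encoded by Trp63, is the master regulator of the epidermal lineage.

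The 6 members printed here were picked by score, skin calls, nearest gene or an AP1 match and do not stand for the average member; each is given as the 300 bp around the middle of the domain, 5′ to 3′ on the plus strand of GRCm38.p6 from RefSeq. Capitals mark an AP1 match (TGANTCA, the same letters on both strands). The first is the member with the highest score, the 280 bp domain over a start site of Zfp212, a zinc finger gene (window 6:47920283-47920582).
Zfp212: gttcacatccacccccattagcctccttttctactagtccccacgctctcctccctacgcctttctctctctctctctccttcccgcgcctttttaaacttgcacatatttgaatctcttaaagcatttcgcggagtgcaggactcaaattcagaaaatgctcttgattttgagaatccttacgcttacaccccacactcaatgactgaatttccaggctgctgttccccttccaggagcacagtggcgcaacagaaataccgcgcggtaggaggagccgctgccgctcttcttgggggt
The next lay nearest to the noncoding gene Gm48370 and was called in skin at D0 and at no later time point (14:9239979-9240278).
Gm48370: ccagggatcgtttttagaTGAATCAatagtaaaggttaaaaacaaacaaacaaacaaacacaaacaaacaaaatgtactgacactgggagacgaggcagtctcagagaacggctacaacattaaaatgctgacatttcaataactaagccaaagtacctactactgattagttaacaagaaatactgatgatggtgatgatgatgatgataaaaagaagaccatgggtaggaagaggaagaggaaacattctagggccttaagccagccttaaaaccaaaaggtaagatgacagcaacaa
A pair lay near genes of the epidermal program, in an intron of Trp63 (16:25767772-25768071) and outside annotated genes near Klf4, a driver of barrier formation (4:55522324-55522623).
Trp63: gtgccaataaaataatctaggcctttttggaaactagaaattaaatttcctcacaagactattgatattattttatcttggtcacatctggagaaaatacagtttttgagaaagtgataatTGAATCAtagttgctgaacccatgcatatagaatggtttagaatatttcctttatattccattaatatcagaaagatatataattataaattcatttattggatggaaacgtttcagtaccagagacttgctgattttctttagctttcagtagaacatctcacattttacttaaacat
Klf4: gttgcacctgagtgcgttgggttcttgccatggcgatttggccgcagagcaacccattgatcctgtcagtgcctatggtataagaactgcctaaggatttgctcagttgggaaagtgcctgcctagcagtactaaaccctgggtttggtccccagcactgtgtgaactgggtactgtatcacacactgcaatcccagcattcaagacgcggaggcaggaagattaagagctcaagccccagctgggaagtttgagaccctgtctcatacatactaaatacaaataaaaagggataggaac
The last pair are the highest-scoring members with an AP1 match, nearest to Gm27525 (15:22316490-22316789) and to Tmem219 (7:126905775-126906074).
Gm27525: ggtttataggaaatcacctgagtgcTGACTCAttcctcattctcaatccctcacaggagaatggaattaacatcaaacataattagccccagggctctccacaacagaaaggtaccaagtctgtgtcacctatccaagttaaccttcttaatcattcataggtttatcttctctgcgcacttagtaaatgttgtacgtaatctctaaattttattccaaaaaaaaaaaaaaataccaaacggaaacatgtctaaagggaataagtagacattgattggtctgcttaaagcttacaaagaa
Tmem219: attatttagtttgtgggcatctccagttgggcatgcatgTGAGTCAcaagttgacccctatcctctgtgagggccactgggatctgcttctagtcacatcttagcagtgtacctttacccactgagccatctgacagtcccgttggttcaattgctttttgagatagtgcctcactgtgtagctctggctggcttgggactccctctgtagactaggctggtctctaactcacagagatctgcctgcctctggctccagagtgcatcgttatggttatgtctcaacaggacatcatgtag
The windows at Zfp212 and Klf4 held no AP1 match, and the other 4 held 1 each.

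Loss of a domain was more common with WT SOX9 than with either truncated form. In all, 25.1% of domains (27731) were lost with WT, 15.6% (17274) with ΔHMG and 17.5% (19356) with ΔTA. The 6780 members thus made up 24.4% of the losses with WT, 39.2% of those with ΔHMG and 35.0% of those with ΔTA. The 3 comparisons share the single list without DOX and so are not independent. DOX itself was present with every variant and absent from the control, and its part cannot be told apart from that of the proteins. Lists of ΔHMG and ΔTA cells without DOX were not used here. Besides the members, 71006 domains were kept with all 3 variants (64.2%), 13186 were lost with WT only, and 3952 were lost with WT and ΔHMG but kept with ΔTA.

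The members were weak and narrow as a group, although most weak domains of the list were not members. These values belong to the calls that the rule used, and a narrow domain has fewer bases to share. They describe the selection and are not a separate result. Their median fold enrichment, the signal over the expected background in the authors' calls, was 3.05 (interquartile range 2.75 to 3.46), against 3.78 for the domains kept with all variants and 3.49 for those lost with WT only. Their median width was 347 bp (276 to 577 bp), against 1151 bp for kept domains and 584 bp for those lost with WT only. The median score, about 10 times the −log10 q-value of the call, was 21 for members and 55 for kept domains. In 43.5% of members the q-value was above 0.01, which held for 3.77% of kept domains. Only 478 members (7.05%) reached 1000 bp, a width that 58.2% of kept domains had. The patterns of loss with 2 variants lay between members and kept domains, nearer to the members. ΔHMG and ΔTA had a median fold of 3.08, a median width of 409 bp and 34.3% of q-values above 0.01. WT and ΔHMG had 3.16, 406 bp and 34.5%, and WT and ΔTA had 3.24, 435 bp and 28.8%.

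When the list was cut into 10 equal parts by score, the share lost with all variants fell in every step, from 23.6% of the lowest part (scores 10 to 18) to 0.145% of the highest (scores 100 to 1957). Of that lowest part, 18.03% were kept with all variants. The share lost with WT only fell later, from 17.9% in the lowest part and 19.6% in the next to 2.32% in the highest. Each list with DOX held more domains than the 110589 without DOX: 116042 for WT, 116326 for ΔHMG and 123338 for ΔTA. They covered 133.1, 120.1 and 133.2 Mb in that order, against 119.7 Mb without DOX. The depth of the lists with DOX was not known, and the part of depth in these losses was not tested.

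**Figure D1:**
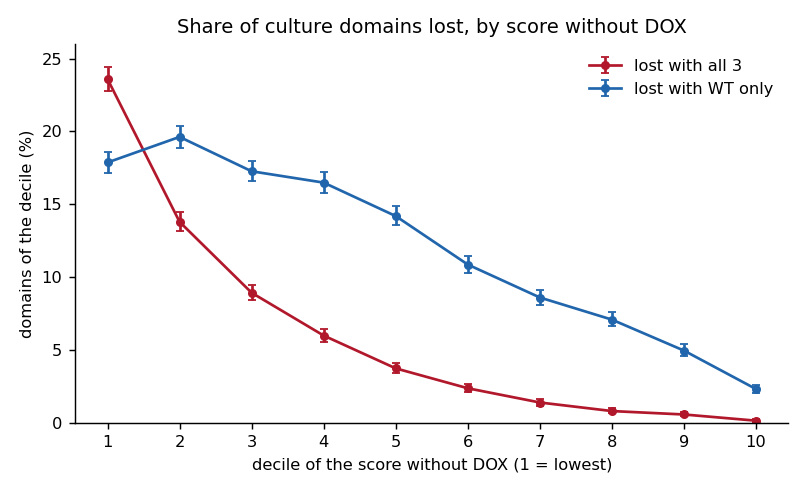
Share (%) of the culture domains in each of 10 equal parts by score without DOX that were lost with all 3 variants (red) or with WT SOX9 only (blue), bars being 95% exact binomial intervals. Loss with all 3 falls from 23.6% in the lowest part to 0.145% in the highest, more steeply than loss with WT only.

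High-scoring members were few and short. Among them 375 had a score of 50 or more, the highest being 202 for the domain at Zfp212, which had a fold of 6.997 over 280 bp. It was followed by a 286 bp domain far from any gene, 123320 bp from the pseudogene Gm12650 (4:93925653-93925938), with a score of 161 and a fold of 8.73. Next came a 254 bp domain near the pseudogene Gm43247 (5:113054317-113054570), with a score of 135 and a fold of 7.84. Strong members were thus narrow and steep: at or above the median score of the list, members had a median fold of 4.45, slightly higher than the 4.27 of kept domains, over a median of 322 bp against 1203 bp. Among the 10 highest-scoring members, 2 lay close to olfactory receptor genes, which sense odorants in the nose. These were a 545 bp domain at Olfr1437 with a score of 129 and a 243 bp domain at Olfr1329 with a score of 123. The other members of that top 10 lay nearest to Gm44283, Gm27525, Gm46388, Greb1 and Tmem219, with scores of 112 to 120. Of these 10, the 6 at Gm12650, Olfr1437, Olfr1329, Gm27525, Gm46388 and Tmem219 overlapped no skin H3K4me1 domain at any time point. In the centre of the Olfr1437 domain 89.0% of bases lay in annotated repeats, against a mean of 22.3% over all members and 18.4% over kept domains.

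The widest members were a different set. An intronic domain of Deptor, an inhibitor of mTOR, was 3377 bp wide with a fold of 2.78 (15:55145582-55148958) and had no skin call. The 2989 bp domain over a start site of Ppp1r36 (fold 3.57) and the 2855 bp domain over a start site of the antisense gene Gm13066 (fold 2.54) were called at every skin time point. The same held for a 2586 bp domain near Gm43402 and a 2491 bp domain near Klhl7. None of these 5 scored above 28.

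Most members lay more than 500 bp from the domains called with DOX, with which the rule lets them share no base. The median distance to the nearest domain of any of the 3 lists was 2682 bp, and 71.2% of members had one within 5000 bp. By variant the median distance was 4327 bp for WT, 4053 bp for ΔHMG and 3868 bp for ΔTA. Within the list without DOX, the median gap to the closest other domain was 4143 bp for members and 4003 bp for kept domains. The distances to the lists with DOX thus do not show members as isolated. Within 500 bp of a domain with DOX lay 342 members (5.04%). At the edge of the rule, a 329 bp member near Bmp7, a growth factor gene, touched a WT domain without sharing a base. Just outside it, a 1004 bp domain near Gm11468 shared 1 bp with a ΔTA domain and a 267 bp domain near Fxyd4 shared 1 bp with a WT domain, so both count as kept with that variant.

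The members were mainly distal. More than 2500 bp from any start site lay 83.5% of them (82.6 to 84.4%), compared with 71.2% of kept domains (70.8 to 71.5%) and 86.3% of those lost with WT only. Of members, 38.6% were in introns, 38.0% between genes and 6.93% over exons beyond that limit. Only 2.39% covered a start site, against 9.83% of kept domains. The median distance to a start site was 13364 bp for members and 8772 bp for kept domains. The higher distal share was not limited to weak calls: in each of 15 classes of similar score and width that held at least 20 domains of both kinds, members were distal more often than kept domains. Against the domains lost with WT only, the order was mixed, members being less often distal in 12 of the 15 classes.

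**Figure D2:**
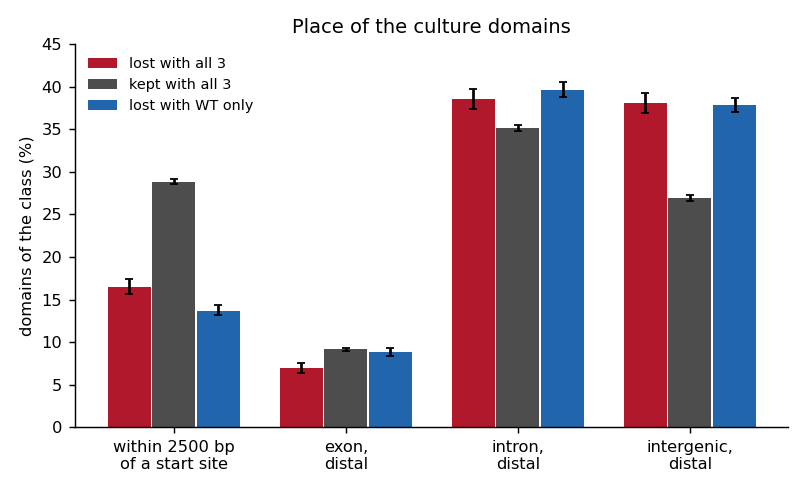
Share (%) of culture domains within 2500 bp of a start site, or further away over an exon, in an intron or between genes, for domains lost with all 3 variants (red), kept with all 3 (grey) and lost with WT SOX9 only (blue), bars being 95% exact binomial intervals. Of members, 16.5% were near a start site, against 28.8% of kept domains.

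By chromosome, the share of domains that were members ran from 5.19% on chromosomes 8 and 15 to 8% on chromosome 14 among the autosomes, and was 10.5% on X (261 of 2479, interval 9.35 to 11.8%). The domains of X also scored lower, with a median of 34 against 37 to 49 on the autosomes. Within classes of score the X share remained above the autosomal one, at 28.1% against 21.9% for scores of 10 to 19 and at 14.7% against 10.7% for scores of 20 to 29. Loss on X was also above every autosome for each variant by itself, with 32.6% for WT, 25.1% for ΔHMG and 27.5% for ΔTA. The higher X share was thus not particular to the members. Chromosome Y held 10 domains, of which 2 were members.

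AP1 sites set the members apart from the domains that fell with WT alone. A match to TGANTCA was found in 13.6% of the 300 bp member centres (12.8 to 14.4%), in 17.7% of kept centres (17.4 to 17.9%) and in 24.4% of centres lost with WT only (23.6 to 25.1%). All 32851 RefSeq promoters of the same length (250 bases before to 50 after a start) had 7.81%, and all domains without DOX had 17.6%. The intervals of members, kept domains, domains lost with WT only and promoters do not overlap. In the 15 classes of like score and width, the share of members with a match was below that of kept domains in 15 and below that of domains lost with WT only in 15. Counted over whole domains, members held 0.464 matches per kb, kept domains 0.545 and those lost with WT only 0.759.

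The share followed the fate with ΔTA. All 4 patterns that included loss with ΔTA had low shares: 11.2% for loss with ΔTA only, 11.7% for ΔHMG and ΔTA, 13.98% for WT and ΔTA, and the 13.6% of the members. The 4 patterns kept with ΔTA had higher shares, at 15.6% for loss with ΔHMG only, 17.7% for domains kept throughout, 20.6% for WT and ΔHMG and 24.4% for WT only. This order was noticed in the data and was not tested. The intervals of loss with ΔHMG only (14.3 to 16.9%) and with WT and ΔTA (12.9 to 15.1%) overlap. The patterns were not matched here for score or width.

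**Figure D3:**
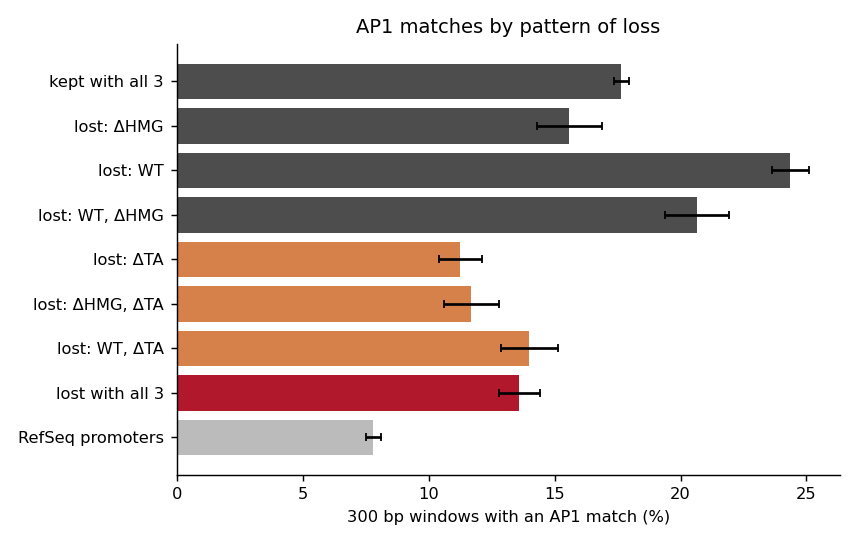
Share (%) of 300 bp centres with an AP1 match (TGANTCA) for each pattern of loss, where a row such as "lost: WT" names every variant with which the domain was lost; orange and red rows include loss with ΔTA, light grey is RefSeq promoters, and bars are 95% exact binomial intervals. The orange and red rows lie between 11.2% and 13.98%, the dark grey rows between 15.6% and 24.4%.

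Other motifs of epidermal and follicle factors differed less. The SOX motif (ACAATG, both strands, as for all motifs) was in 13.95% of member centres, 14.2% of kept centres, 13.3% of those lost with WT only and 12.6% of promoters. Letters bound by GATA factors, AGATAA, were in 15.3% of members, 14.6% of kept domains and 11.2% of promoters. The RUNX letters (TGTGGT) were in 21.1%, 22.1% and 16.8%, and the TEAD letters (GGAATG) in 18.2%, 19.7% and 14.7% of the same groups. The p63 letters (ACATGTC) were in 3.97% of members, 3.37% of kept domains and 2.01% of promoters. The NFI letters (TTGGCA) were in 17.9% of members, above the 15.9% of kept domains and the 15.3% of those lost with WT only, but domains lost with ΔHMG and ΔTA had 18.1%. The intervals of members and kept domains do not overlap for NFI, for TEAD, where members were lower, or for p63, where members were higher. For p63 the gap was narrow, from 3.51% (upper end, kept domains) to 3.52% (lower end, members), with 11 motifs searched. The higher p63 share was not particular to the members. It was 3.997% for loss with WT only, 4.25% for WT and ΔHMG, 3.95% for ΔHMG only and 3.84% for ΔTA only. Domains lost with WT and ΔTA had 3.15%, and those lost with ΔHMG and ΔTA 3.42%. A KLF motif (GGGNGTG) was in 23.0% of members, 23.6% of kept domains and 29.2% of promoters. CEBP (TTGCNNAA) was in 12.9%, the E-box (CACGTG) in 4.73% and ETS (CCGGAAGT) in 0.295% of members. Kept domains were near these values, with 12.1%, 4.57% and 0.410%, whereas promoters had 10.8%, 7.15% and 3.89%. A match to such letters is not a bound site. The GC content of the centres averaged 47.0% in members and 48.0% in kept domains.

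Members were found less often in skin than kept domains. Among all domains without DOX, 65.8% were overlapped by a skin H3K4me1 domain at D0, followed by 58%, 58.9%, 64.1% and 62.9% for W1, W2, W6 and W12. Members were overlapped in 43.9% (42.7 to 45.1%), 33.5%, 33.8%, 37.5% and 34.1% of cases, in the same order. Kept domains had 74.9%, 68.3%, 69.3%, 74.9% and 74.0%. The skin domains are wide, with a median of 2400 bp at D0, and come from other animals. No skin call at all was found for 3067 members (45.2%), against 14.6% of kept domains. The other patterns that included loss with WT were near the members: WT only 44.6%, WT and ΔHMG 44.8%, WT and ΔTA 43.3%. Domains lost with ΔHMG only had 21.6%, with ΔTA only 22.9% and with ΔHMG and ΔTA 27.3%. At the other end, 1422 members (20.97%) were called at all 5 time points, against 57.8% of kept domains. For WT only, WT and ΔHMG, and WT and ΔTA this share was 20.3%, 21.4% and 21.9%.

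H3K27ac was rare at the members. Over all domains without DOX, 15.5%, 16.1%, 16.1%, 17% and 13.2% overlapped a skin H3K27ac peak at D0, W1, W2, W6 and W12. For members the values were 4.62%, 4.25%, 4.19%, 4.63% and 3.38%, and for kept domains 20.5%, 21.3%, 21.3%, 22.5% and 17.6%. In the classes of like score and width, members were below kept domains in 15 of 15 for H3K27ac at D0 and in 15 of 15 for H3K4me1 at D0. Domains lost with WT only had 42.7% for H3K4me1 and 4.97% for H3K27ac at D0, against 43.9% and 4.62% of members. Within the classes, however, members were above the domains lost with WT only in 13 of 15 for each mark at D0.

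**Figure D4:**
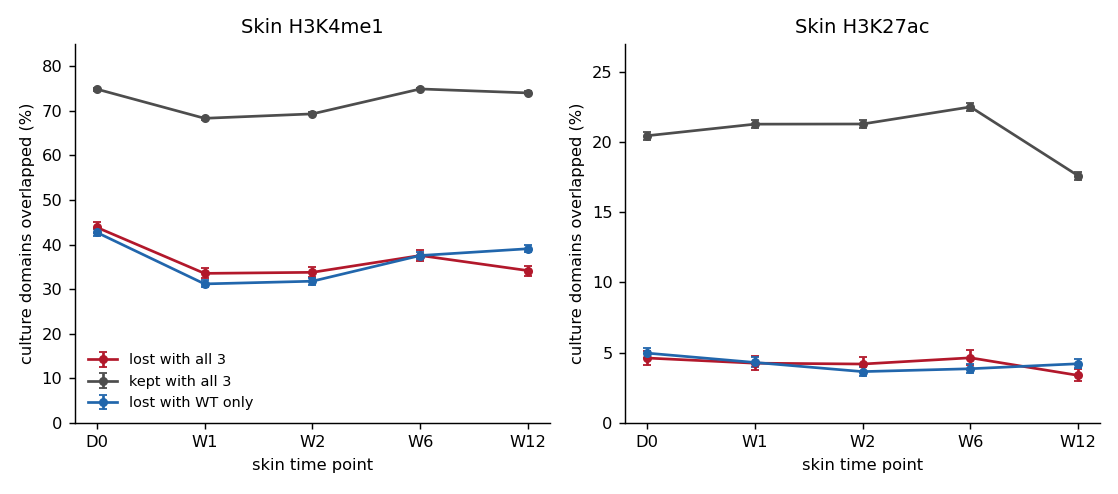
Share (%) of culture domains overlapped by at least 1 bp by a skin H3K4me1 domain (left) or H3K27ac peak (right) at each skin time point, for domains lost with all 3 variants (red), kept with all 3 (grey) and lost with WT SOX9 only (blue), bars being 95% exact binomial intervals. The red and blue points lie far below the grey ones at all 5 time points, and at W12 the red ones are the lower (34.1% against 39.1% for H3K4me1).

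The 313 members in an H3K27ac peak at D0 were led by a 393 bp domain 8251 bp from Cd93, a receptor gene of endothelial cells (2:148451814-148452206, fold 3.12, score 96). It also overlapped H3K27ac peaks at W2, W6 and W12 and H3K4me1 at every time point. The next were a 258 bp domain near Gm13400 (score 85), a 663 bp domain 123 bp from A230072C01Rik on X (score 83), a 248 bp intronic domain of Phldb2 (score 77) and a 582 bp domain near Gm37641 (score 70). The A230072C01Rik domain was the one of these 5 with an H3K27ac call at all 5 time points. At Gm13400, Phldb2 and Gm37641 the H3K27ac call was limited to D0, while H3K4me1 was called throughout.

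Loss of the skin call was more common at members than in the list as a whole. Of the 2974 members called in skin at D0, 34.9% were missing at W2 (33.2 to 36.7%), and the shares for W1, W6 and W12 were 28.2%, 26.8% and 32.7%. Of kept domains called at D0, 14.1% (13.8 to 14.4%) were missing at W2, with 11.4%, 8.44% and 10.6% for the other 3. Domains lost with WT only were like the members up to W6, with 37.5% at W2, 30.6% at W1 and 26.4% at W6, and were below them at W12 (26.9%). At W12, domains lost with WT and ΔTA had 34.9% and those lost with WT and ΔHMG 26.1%. Over all domains without DOX called at D0, 18.5% were missing at W2. The high values at W2 belonged to the 4 patterns that included loss with WT, with 33.6% for WT and ΔHMG and 37.97% for WT and ΔTA. Domains lost with ΔHMG only (19.03%), ΔTA only (22.6%) or ΔHMG and ΔTA (20.5%) were nearer to the list as a whole. This order by WT was noticed in the data and was not tested. The skin comparisons all rest on the single D0 list. That list was also the largest, with 87287 domains, against 69439, 73415, 79556 and 74316 at W1, W2, W6 and W12. The part of list size in the missing calls was not tested. The W2 and W12 lists came partly from the same libraries and so were not made independently.

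The difference from kept domains was present at each strength of call. By score, members missing at W2 made up 35.0%, 34.1%, 35.7% and 36.4% in the classes 10 to 19, 20 to 29, 30 to 49 and 50 or more, against 17.6%, 16.6%, 13.9% and 13.6% of kept domains. Members thus showed about the same rate at any culture score. By the width of the skin domain itself, the members missing at W2 were 75% where it was under 1000 bp, 55.3% from 1000 to 1999 bp, 38.3% from 2000 to 3999 bp and 20.4% from 4000 bp. For kept domains the values were 53.7%, 35.4%, 14.5% and 4.86%. These class bounds were chosen after the values had been seen.

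Gain in skin was less common at members. Of the 3806 members not called at D0, 3.65%, 9.30%, 9.64% and 8.25% were called at W1, W2, W6 and W12. Kept domains not called at D0 reached 8.01%, 19.97%, 25.3% and 28.0%, and those lost with WT only 2.66%, 8.83%, 10.6% and 13.6%. Kept domains and those lost with WT only thus had their highest values at W12, and members did not. The other patterns that included loss with ΔTA did not either. Domains lost with WT and ΔTA had 9.27% at W6 and 7.20% at W12. From W2 to W12 the share went from 20.6% to 17.1% for loss with ΔTA only, and from 22.0% to 16.8% for ΔHMG and ΔTA.

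**Figure D5:**
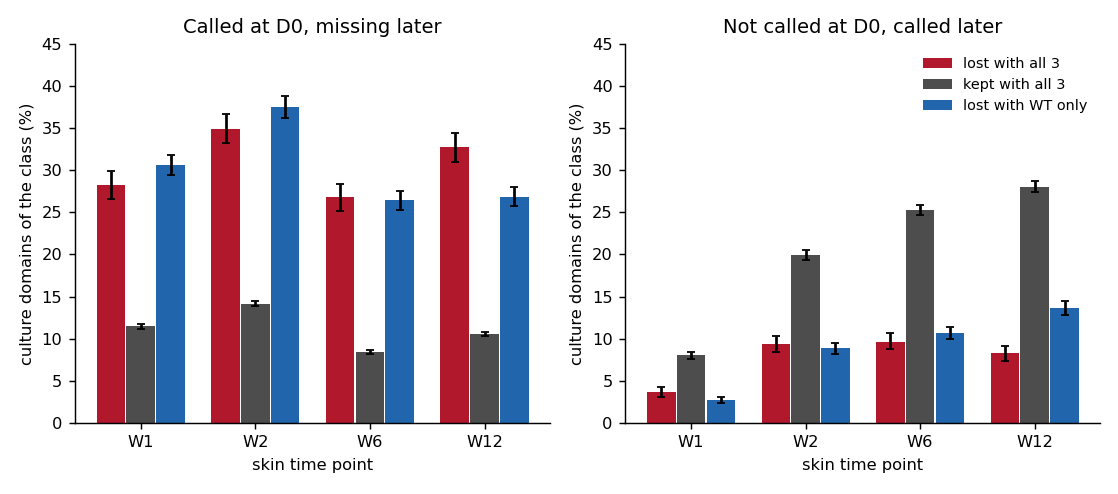
Left, share (%) of culture domains called in skin at D0 that were missing at each later time point; right, share (%) of those not called at D0 that were called later, for domains lost with all 3 variants (red), kept with all 3 (grey) and lost with WT SOX9 only (blue), bars being 95% exact binomial intervals. At W2, 34.9% of members but 14.1% of kept domains were missing on the left, and 9.30% and 19.97% were called on the right.

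In 342 members the skin call at D0 did not return at any later time point, which is 11.5% of those called at D0, against 2.74% of kept domains. The share was 10.9% for loss with WT only, 10.4% for WT and ΔHMG and 12.4% for WT and ΔTA. It was 4.22% for ΔHMG only, 6.12% for ΔTA only and 5.51% for ΔHMG and ΔTA. The highest-scoring of the 342 members was the 419 bp domain whose centre is printed above as Gm48370, with a fold of 5.93 and a score of 82. It was followed by a 236 bp intronic domain nearest to Gm37941 (score 78), a 588 bp domain near Zfp42-ps1 (score 77), a 299 bp domain near Gm5554 (score 73) and a 610 bp domain near Gm6104 (score 63). None of these 5 was nearest to a protein-coding gene. Over all members, 46.0% had a protein-coding nearest gene, 15.9% a processed pseudogene and 12.9% a lincRNA, against 54.5%, 11.1% and 10.9% of kept domains. Domains lost with WT only had 44.1%, 16.0% and 13.7%, and those lost with WT and ΔHMG 42.3%, 16.1% and 14.8%.

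The gene lists held few members each. Nearest to the 19 epidermal transcription factors lay 149 domains, of which 5 were members (3.36%, interval 1.10 to 7.66%, where the whole list had 6.13%). A member in an intron of Trp63 was 1114 bp wide with a fold of 4.80 and a score of 67 (16:25767365-25768478), and was called in skin at D0 and W6. A weaker member of the gene, 332 bp wide with a fold of 2.24 (16:25840092-25840423), was called at every time point and carried H3K27ac at W2. Trp63 had 26 domains, and 19 of them were kept with all variants. The member near Klf4 was 1609 bp wide with a fold of 3.39 (4:55521670-55523278), was called throughout and carried H3K27ac at W6. Another member of this group was a 246 bp domain 678 bp from a start site of Hes1, a Notch target, with a fold of 2.07. The Hes1 domain was overlapped by H3K27ac at all 5 time points.

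No member was nearest to a gene of the AP1 family, which had 31 domains; the exact interval of 0 of 31 reaches 11.2%, and 3 counts would be 9.68%. Of the 96 domains at genes of basal adhesion and basal keratins, 5 were members (5.21%). Krt14, Itga3, Itgb1 and Col17a1 had 1 each, and Col17a1, a hemidesmosomal collagen, kept 7 of its 9 domains with all variants. Of 83 domains at suprabasal differentiation genes, 7 were members (8.43%, 3.46 to 16.6%). These were 3 domains of Dsc1, a desmosomal cadherin of the upper layers, and 1 each of Dsg1a, Krt1, Sprr1a and Klk5. The Krt1 member had a fold of 3.08 over 1099 bp and was called in skin throughout.

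Of the stress-associated keratinocyte genes, Il33, an alarmin, was the one with members, 3 of its 10 domains, and one of them, 337 bp wide, covered a start site. The folds of the Il33 members were 2.93, 3.01 and 2.89, all 3 were called at every skin time point, and each overlapped H3K27ac at 1 or more of them. In all, 3 of 29 domains near these genes were members (10.3%, 2.19 to 27.4%). Of 94 domains at Notch pathway genes, 6 were members (6.38%): 2 at Notch1 and 1 each at Notch2, Hes1, Maml3 and Lfng. The receptors and ligands of the EGF family had 3 of 95 (3.16%), 2 at Btc, encoding betacellulin, and 1 at Egfr.

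Hair follicle stem cell genes were little different, with 7 members of 126 domains (5.56%, 2.26 to 11.1%). They lay at Gli3, Nfib and Ptch1, with 2 each, and at Nfatc1. Genes of invasion and mesenchymal transition had 1 of 64, at Cdh2, and enhancer cofactors had 1 of 59, at Smarca2, a SWI/SNF ATPase. No interval of the 10 lists excluded the 6.13% of the whole list. Of the 37 members near any listed gene, 28 were called in skin at D0 (75.7%), as were 82.6% of all 820 domains near those genes.

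Some loci held several members. By rule, the 10 genes with most members began with Nnmt and Zbtb16, with 8 each. Plxdc2 had 8 of 36 domains, Vav3 8 of 54, Sdk2 7 of 25 and Mir21c 7 of 43. Gm42604 had 6 of 18, Filip1l 6 of 34, Efna5 6 of 36 and Foxp1 6 of 63. The ranking is by count, so genes with many domains rank high. Shares ran from 9.52% at Foxp1 to 53.3% at Nnmt, against 6.13% of the whole list. Nnmt, a nicotinamide methyltransferase, had 8 members among 15 domains (53.3%), and its neighbour Zbtb16, the zinc finger repressor PLZF, had 8 among 26 (30.8%). Both lie in the 1 Mb window with most members, on chromosome 9 from 48000001 to 49000000. There 17 of 55 domains were members (30.9%), 20 were kept with all variants, and the median score of 30 was below the 43 of the whole list. For Foxp1, a forkhead repressor, 44 of 63 domains were kept with all variants and 6 were members.

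The window with the next highest count was on chromosome 18 from 20000001 to 21000000, with 16 members of 101 domains (15.8%). It holds the cluster of desmosomal cadherin genes, whose proteins join keratinocytes to each other. Of the 65 domains there that were nearest to a cadherin of this family, 14 were members and 38 were kept with all variants. Over the whole list, 6.13% of domains were members and 64.2% were kept with all variants. Dsc1, Dsg1c and Dsg4 had 3 each, Dsc2 had 2, Dsg1a, Dsg1b and Dsg3 had 1, and Dsg2 and Dsc3, with 5 and 4 domains, had none. The median score of this window was 46. Both windows were picked out after their counts had been seen. Across 2440 windows with a domain, the median was 2 members and 3 windows had 15 or more. Of members, 14.3% had another member as the next domain on either side. A member lay there for 11.3% of kept domains and 11.8% of all domains without DOX. These shares were not matched for score, so they do not show whether members as such were grouped.

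As a check of the cell type, all 10 keratinocyte markers had at least 1 nearest domain without DOX, and 2 of the 10 had a domain over a start site. Of the fibroblast markers 5 of 7 had a nearest domain and 3 a domain over a start site, and of the immune markers 4 of 6 and 1. All 5 endothelial markers had a nearest domain and 1 a domain over a start site, for melanocytes 5 of 6 and 1, and for hair follicle stem cells 6 of 6 and 4. H3K4me1 is low at strongly active start sites, so these counts do not separate the cell types.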

How the data were processed

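H3K4me1 was profiled by MINT-ChIP, a barcoded, multiplexed chromatin immunoprecipitation. Culture labels give 2 libraries, with high and low MNase, and 4 lists on pooled reads were used. The authors deposited these as broadPeak tables with a score, a fold enrichment (a ratio over background) and a −log10 q-value for each domain. Reads were aligned to mm10 per the labels, which name Bowtie2 2.2.9, MACS2 2.1.1 and SICER 0.0.36 without roles, and the methods name epic2 for H3K4me1, so the caller of the culture lists is not certain. Skin H3K4me1 domains were deposited by the authors with a p-value each, and skin H3K27ac peaks in the layout of the culture lists. There were 14 barcode files, not used here.

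Overlaps, distances and motif matches were computed in Python 3.11.15 (numpy 2.4.6, pandas 2.3.3) on chromosomes 1 to 19, X and Y, and drawn with matplotlib 3.10.9. Kept meant at least 1 bp shared. Start sites came from GENCODE M21, sequences from RefSeq GRCm38.p6, which has the coordinates of mm10. Shares have 95% exact Clopper-Pearson intervals (scipy 1.17.1). With 1 list per condition no test was possible. Functions were tested on simulated lists.

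The members and gene lists were chosen with earlier results of these data known. Named domains were the 10 with the highest score, the 5 widest, the 5 highest-scoring in each of 3 classes (called in skin at D0 only, in an H3K27ac peak at D0, with an AP1 match), all those nearest to an epidermal transcription factor or AP1 gene, and those at the edge of the overlap rule; named genes were the 10 with most members and those of the gene lists. Single domains or genes that this rule names but the text leaves out are not reported here. Alternatives covered the overlap, gap, score, q-value, joining, sex chromosomes, distal limit, centre width and gene assignment.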

Additional observations from a re-analysis of the deposited data

How the results depend on the processing

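Each value was recomputed under alternatives that changed 1 choice at a time. The direction against kept domains was the same in 55 of 57 cases other than the number itself; both exceptions came with domains at or above the median score, which left 625 members: the median fold was then 4.45 (kept 4.27) and the share near epidermal genes 0.64% (kept 0.325%), from 0.251% (kept 0.330%). In that set the median width was 322 bp, the distal share 84.8%, the share called in skin at D0 49.0% and the AP1 share 15.2%. When 50% of the shorter interval had to be shared, there were 8047 members with a median fold of 3.03, a median width of 366 bp, 45.3% called at D0, 32.9% of these missing at W2, and 5.37% with H3K27ac. With a q-value of at most 0.05 in every list the median fold was 3.09. The distal share was 90.5% with a limit of 1000 bp and 57.7% with 10000 bp. The AP1 share was 9.41% in 200 bp centres and 21.2% in 500 bp centres (kept 12.3% and 27.01%). The share called at D0 was 42.6% when 50% of the shorter interval had to be shared with the skin domain, and also 42.6% when the middle base had to lie in it, an alternative chosen after the data had been seen. A gap of 500 bp, joining, and leaving out X and Y moved no value beyond its counting interval. No replicate could be left out, since each list pools its libraries. No paired analysis was possible because the result comes from no test. Unknown depth of the culture lists limits every loss of a weak domain.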
